A study of Mus musculus with 4 samples.

Results

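The 33 genes described here encode the machinery that takes glucose into the cell, breaks it down to lactate and exports it, together with the oxygen-sensing HIF system and its targets outside glycolysis. They were chosen by name from the 14382 genes of the deposited expression table, with earlier results of these data known. All 33 were found and measured. The samples were mouse embryonic stem cells (ESCs) of genotype Arid1a f/f:CreERT2, in which both alleles of Arid1a are floxed and Cre is fused to a mutated oestrogen receptor, so that it acts once 4-hydroxytamoxifen (4-OHT) is bound. Arid1a codes for a DNA-binding component of BAF, a complex that remodels chromatin. Cells were given ethanol, the control, or 1 µM 4-OHT for 24 hours and passaged, and polyA RNA was taken 72 hours after treatment, with 2 libraries per group. Both groups carry the same alleles, no group without Cre was given 4-OHT here, and the labels name no further line or clone, so effects of 4-OHT or of active Cre cannot be told apart from loss of Arid1a. The ESCs grew in serum and LIF on irradiated fibroblast feeders, and libraries were made with either of 2 kits that the labels do not assign to libraries, so a kit difference between groups cannot be told apart from the treatment. No label says whether the replicates came from separate cultures; p-values here reflect only the spread between these libraries, which may be technical.

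Glycolysis splits glucose into pyruvate in the cytosol and yields ATP without oxygen. Lactate dehydrogenase turns pyruvate into lactate, which leaves the cell with a proton through monocarboxylate transporters. Pyruvate dehydrogenase kinases inactivate pyruvate dehydrogenase, the enzyme that uses pyruvate inside the mitochondria. HIF is a transcription factor whose alpha subunit is hydroxylated by prolyl hydroxylases and degraded when oxygen is present; in low oxygen it binds short DNA words near many glycolytic genes. Mouse ESCs are known for a high rate of glycolysis even in oxygen.

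The deposited table gave each group's mean CPM (counts scaled by the authors to a fixed library size), and the reads of the single libraries were recovered from these means. As the columns carry no replicate numbers, the letters A and B stand for the libraries within a group. Recovered totals ranged from 6188378 to 7012664 reads. A single read corresponded to 0.142 to 0.159 CPM, and 3 reads, the most that a count of 0 allows when counting error alone is considered, to between 0.426 and 0.477 CPM. Arid1a itself stood at 517 and 502 CPM in ethanol libraries A and B and at 241 and 213 CPM in 4-OHT libraries A and B (log2 fold change -1.16, SE 0.066, limma adjusted p = 7.27e-06). That level is over the whole gene, floxed part included. For the marker lists that follow, 5.24% of all tested genes were called higher and 4.22% lower (limma, adjusted p under 0.05). All 10 pluripotency markers were measured, with summed levels of 4217 to 4359 CPM in ethanol and 4422 to 4592 CPM with 4-OHT. Nanog and Tdgf1 rose (20%), Sox2 and Esrrb fell (20%) and 6 did not pass. Of 18 markers of fibroblast feeders 13 were measured, and Dcn, Lum, Postn, Twist2 and Prrx1 were not found among the genes tested. The summed feeder level was 299 to 306 CPM in ethanol and 306 to 320 CPM with 4-OHT, with Col1a2 and Thy1 higher and Fbln1 lower. Primitive endoderm markers (5 of 6 measured) summed to 27.6 to 27.9 CPM in ethanol and 29.7 to 29.8 CPM with 4-OHT, and trophoblast markers (5 of 6) to 229 to 244 CPM and 213 to 214 CPM, with Krt8 lower. In bulk RNA, fewer cells of a type and less RNA per cell cannot be told apart.

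The promoter DNA of 8 members is shown, chosen with their values known: Slc16a3, Ldha, Bnip3, Pgk1, Aldoc and Tpi1 rose with 4-OHT, the last without a hypoxia word in its window, and Hk2 and Ldhb fell. The sequences are from RefSeq (GRCm38.p6, the mm10 build), on the strand of the gene, 5′ to 3′, and end at the transcript start or at the nearest annotated exon before it, whose bases are left out. Capitals mark the words ACGTG and GCGTG on either strand, which are the cores of the hypoxia response element that HIF binds, and CACGTG, the E-box word, which contains ACGTG.
Slc16a3 (chr11:120948817-120949052, plus strand): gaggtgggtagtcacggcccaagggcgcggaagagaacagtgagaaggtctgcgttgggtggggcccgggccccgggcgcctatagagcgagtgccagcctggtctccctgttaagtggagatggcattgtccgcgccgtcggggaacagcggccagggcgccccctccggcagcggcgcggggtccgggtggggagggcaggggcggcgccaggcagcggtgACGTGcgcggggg
Ldha (chr7:46845554-46845803, plus strand): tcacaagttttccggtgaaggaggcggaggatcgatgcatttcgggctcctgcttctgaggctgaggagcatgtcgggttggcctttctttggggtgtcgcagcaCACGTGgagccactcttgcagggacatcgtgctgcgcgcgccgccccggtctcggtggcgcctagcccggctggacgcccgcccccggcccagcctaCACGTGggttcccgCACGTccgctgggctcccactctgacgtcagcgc
Bnip3 (chr7:138909520-138909756, minus strand): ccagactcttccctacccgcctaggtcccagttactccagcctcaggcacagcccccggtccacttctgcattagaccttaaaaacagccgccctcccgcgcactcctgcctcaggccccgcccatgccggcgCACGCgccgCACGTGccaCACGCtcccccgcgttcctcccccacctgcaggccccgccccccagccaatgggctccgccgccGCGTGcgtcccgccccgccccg
Pgk1 (chrX:106186850-106187099, plus strand): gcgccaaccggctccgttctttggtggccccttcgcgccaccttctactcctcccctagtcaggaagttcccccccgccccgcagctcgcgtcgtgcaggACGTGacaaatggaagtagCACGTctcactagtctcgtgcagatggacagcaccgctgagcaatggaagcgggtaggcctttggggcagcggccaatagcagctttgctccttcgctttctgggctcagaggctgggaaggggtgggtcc
Aldoc (chr11:78322823-78322967, plus strand): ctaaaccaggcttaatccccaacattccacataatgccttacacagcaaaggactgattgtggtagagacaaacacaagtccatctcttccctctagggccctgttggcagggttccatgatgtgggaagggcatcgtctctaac
Tpi1 (chr6:124814297-124814408, minus strand): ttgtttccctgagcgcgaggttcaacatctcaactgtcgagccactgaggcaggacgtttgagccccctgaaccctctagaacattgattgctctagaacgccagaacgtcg
Hk2 (chr6:82774455-82774704, minus strand): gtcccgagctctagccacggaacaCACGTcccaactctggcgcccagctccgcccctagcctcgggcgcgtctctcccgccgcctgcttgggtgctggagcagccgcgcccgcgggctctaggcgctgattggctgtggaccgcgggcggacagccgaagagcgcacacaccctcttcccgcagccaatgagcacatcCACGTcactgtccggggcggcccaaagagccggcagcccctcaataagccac
Ldhb (chr6:142507958-142508207, minus strand): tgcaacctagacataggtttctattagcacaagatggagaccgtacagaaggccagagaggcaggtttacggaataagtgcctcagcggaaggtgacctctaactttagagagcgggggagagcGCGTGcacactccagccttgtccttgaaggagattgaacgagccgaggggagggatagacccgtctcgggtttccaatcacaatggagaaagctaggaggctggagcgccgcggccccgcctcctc
The stretches of Slc16a3 and Ldha lie inside the span of the annotated gene, upstream of the start of a shorter transcript. Ldha held the words at 3 places, 2 of them E-boxes, and Bnip3 at 4 places, of which 1 was an E-box. Pgk1 held ACGTG at 2 places, and so did Hk2, which fell. Ldhb held 1 GCGTG and Slc16a3 1 ACGTG in these stretches. Those of Aldoc and Tpi1 held 0; the words in the windows of Aldoc lie outside the bases shown, and the whole window of Tpi1 held 0.

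Across the promoter windows of RefSeq (250 bases before to 50 after each start, 300 in all), 31 members had at least 1 window and 44 windows were found; Ndrg1 and Slc2a3 were not matched. ACGTG on either strand was in a window of 23 of the 31 members (74.2%), against 21.8% of all genes of the promoter table and 28.9% of the genes tested here. GCGTG was in 20 of 31 (64.5%), against 35.2% and 55.3%. At least 1 of these words was in 29 of 31 members (93.5%), against 46.7% and 66.7%. A gene with more windows has more room for a word. Counted per window, ACGTG was in 56.8% of the members' windows and 24.9% of those of tested genes, and GCGTG in 56.8% and 49.6%. The E-box word was in 5 of 31 (16.1%), against 8.09% and 11.7%: Pfkm, Ldha, Slc16a1, Hif1a and Bnip3. Base composition differed as well, with a median GC content of 62.2% in the members' windows, 52.7% in all windows and 60.7% in those of tested genes. By response, ACGTG was in 8 of the 11 members that rose and have a window, in 1 of the 2 that fell and in 14 of the 18 that did not pass the test. A match is a description of the letters and shows no binding. As the members were chosen as glycolysis and hypoxia genes, their shares describe the list and test nothing.

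**Figure D1:**
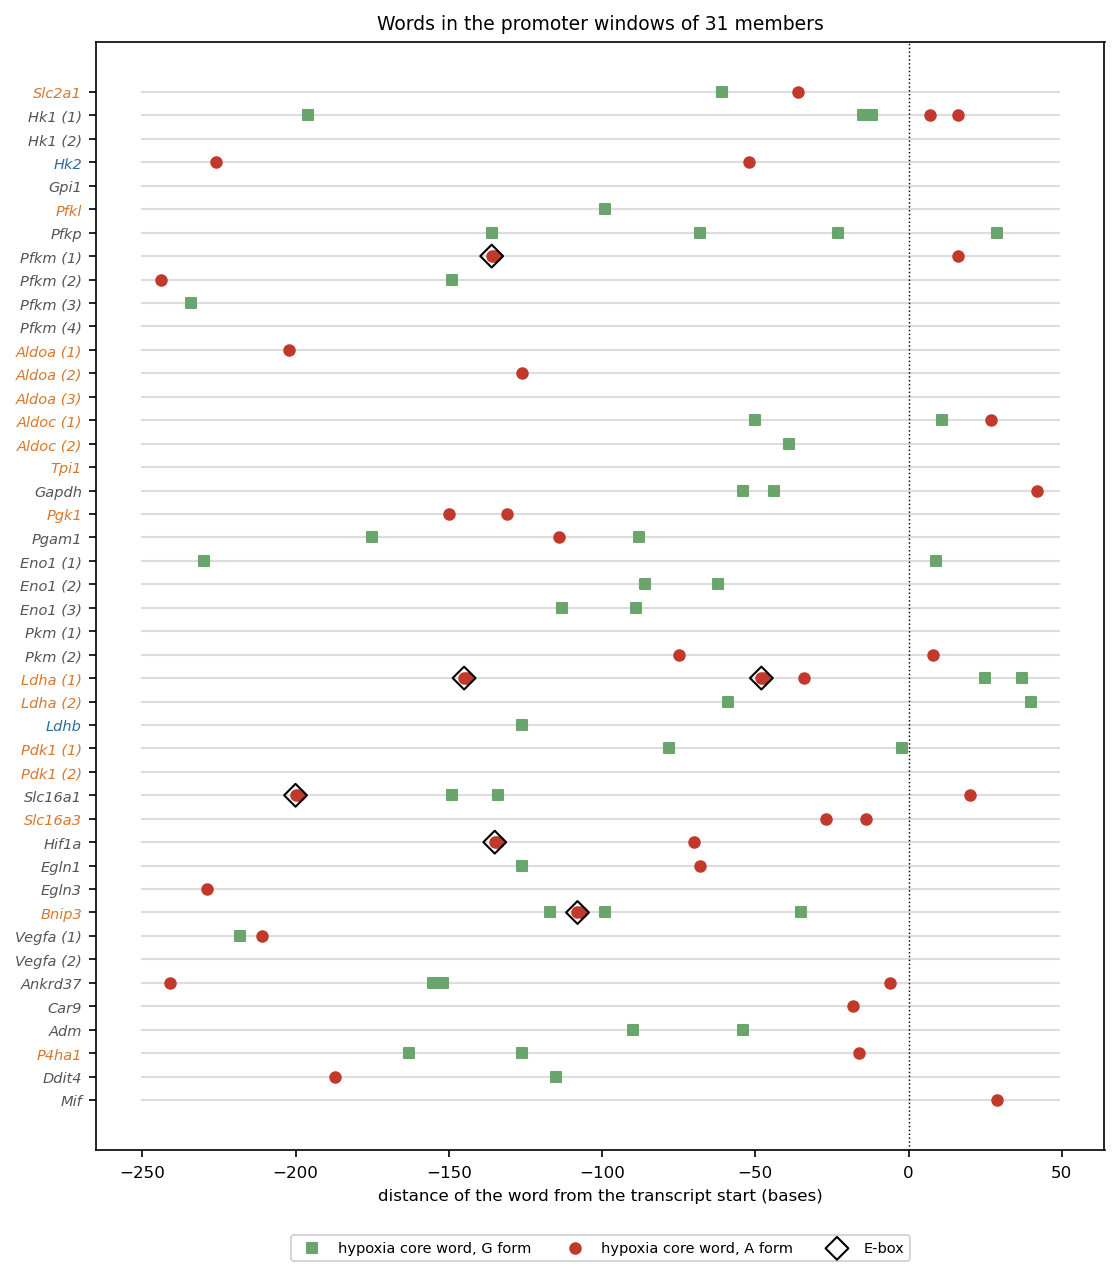
Position of the hypoxia core words (A form, ACGTG; G form, GCGTG) and of the E-box word CACGTG in each of the 44 promoter windows of 31 members, on either strand; the horizontal axis is the distance from the transcript start in bases, each grey line is 1 window, and names are orange for members that rose, blue for those that fell and grey for the others. Words stand in windows of members of all 3 kinds, 29 of 31 members in all.

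With 4-OHT, 12 of the 33 members rose, 2 fell and 19 did not pass the test (limma on log2(CPM + 1), adjusted p under 0.05 over 14376 tested genes). Over all tested genes 5.24% were called higher and 4.22% lower, against 36.4% and 6.06% of the members. As the members were chosen with earlier results of these data known, these shares describe the list and test no enrichment. The 12 that rose were Slc2a1, Slc2a3, Pfkl, Aldoa, Aldoc, Tpi1, Pgk1, Ldha, Pdk1, Slc16a3, Bnip3 and P4ha1, and the 2 that fell were Hk2 and Ldhb. 10 of the risers lie among the 21 genes from glucose uptake to lactate export, and both genes that fell do too. The members' median log2 fold change was 0.15, beside -0.0016 over all tested genes, and 25 of 33 were above 0. In 18 members both 4-OHT libraries lay above both ethanol libraries and in 3 below, where 26.4% and 25.7% of all tested genes did so. The summed level of the 21 genes from glucose to lactate was 8959 and 8912 CPM in ethanol libraries A and B and 11234 and 11326 CPM in 4-OHT libraries A and B, 1.26 times higher. The 9 HIF targets outside glycolysis summed to 264 and 280 CPM in ethanol and 320 and 326 CPM with 4-OHT, 1.19 times higher. The 3 genes of the HIF system summed to 270 and 276 CPM against 268 and 261 CPM, a ratio of 0.971. Such sums rest on their most abundant genes. Among the 21, Slc2a3 went from a mean of 2580 CPM to 3639 CPM. Among the 9, Ddit4 went from 112 to 129 CPM and Mif from 94.7 to 106 CPM, and neither passed in limma. Without either 4-OHT library limma called 0 of the members, with 16 at an unadjusted p under 0.05 in each case, and 0 genes of the whole table (lowest adjusted p 0.129 without library A and 0.121 without library B, with 2505 and 2514 genes at an unadjusted p under 0.05). The quasi-likelihood test of edgeR on the recovered reads, which called 8.12% of its 12961 tested genes higher and 7.63% lower, called 13 members higher and 2 lower, and kept 14 of the 14 member calls without 4-OHT library A and 13, all but Hk2, without library B. DESeq2, which called 2.77% of 13801 genes higher and 2.3% lower, called 11 members higher and 1 lower, without P4ha1 and Hk2.

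**Figure D2:**
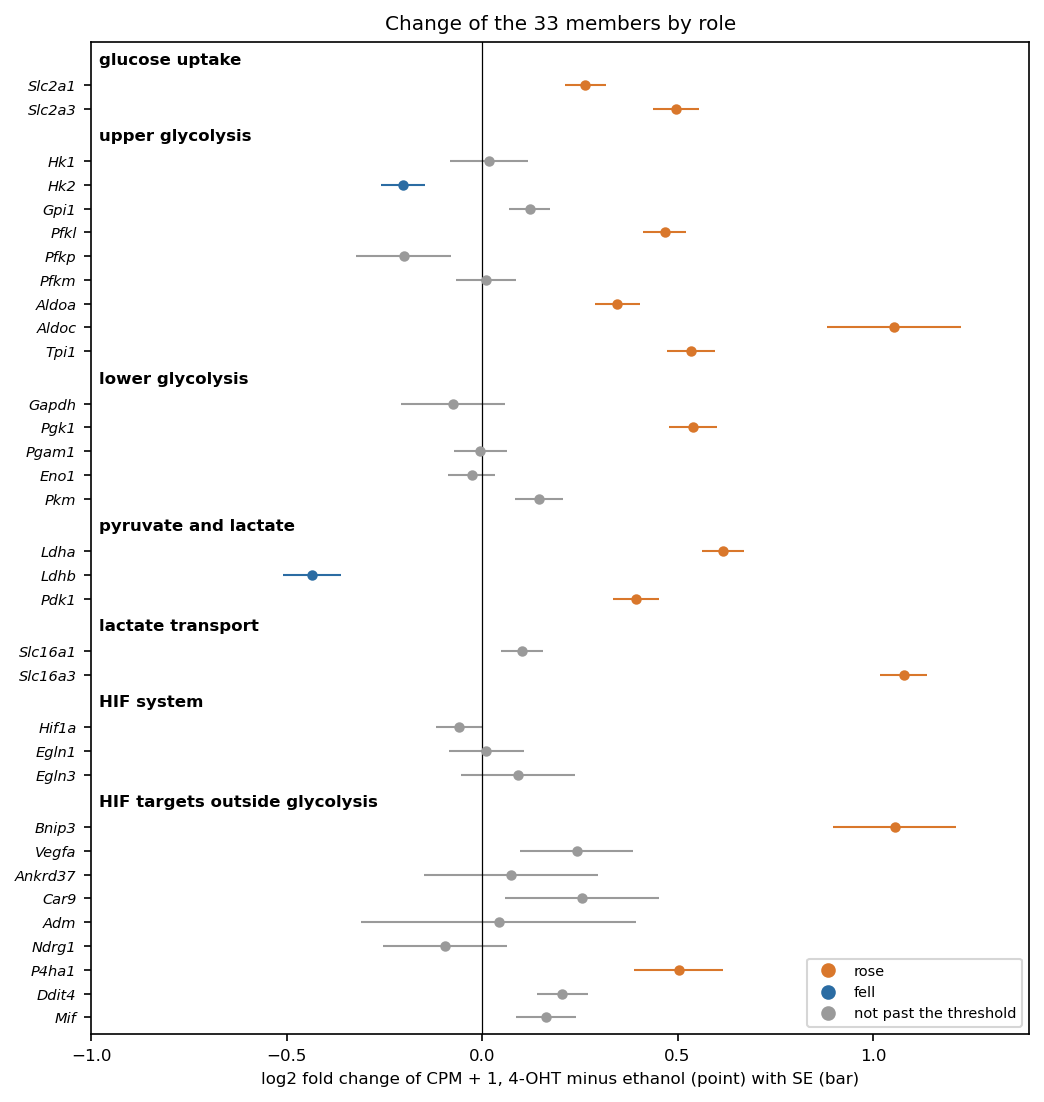
The 33 members grouped by role, each with its log2 fold change on the CPM + 1 scale (point; horizontal axis, positive where 4-OHT is higher) and SE (bar); colours mark rises (orange), falls (blue) and members not past the threshold (grey). The 2 members of glucose uptake lie above 0, the 3 members of the HIF system lie near it, and Slc16a3, Aldoc and Bnip3 lie above 1.

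Both members of glucose uptake rose, where 5.24% of all tested genes were called higher. Slc2a3 encodes GLUT3, a high-affinity glucose transporter (GRCm38 chromosome 6, 122727809 to 122801640, minus strand), and Slc2a1 encodes GLUT1, which serves basal uptake in many cells (chromosome 4, 119108711 to 119137983, plus strand). Slc2a3 had 2553 and 2607 CPM in ethanol libraries A and B and 3767 and 3511 CPM in 4-OHT libraries A and B. The groups did not overlap, and the level was 1.41 times higher (log2 fold change 0.50, SE 0.059, limma adjusted p = 0.000663). Several pairs of reads were possible for Slc2a3, as for Pkm, and the pair within 2-fold was kept. The closeness of the Slc2a3 libraries therefore rests in part on that rule. Slc2a1 went from 790 and 771 CPM to 918 and 957 CPM, a smaller rise of 1.20 times (0.26, SE 0.053, adjusted p = 0.0115). The call of Slc2a1 was lost in limma without ethanol library A (adjusted p = 0.0845) or B (adjusted p = 0.142), and its span overlaps Gm12868 on the opposite strand. Per kilobase of exon Slc2a3 made up 72.7% and 73.6% of the pair in ethanol and 77.2% and 75.1% with 4-OHT, so the share of GLUT3 was higher in both 4-OHT libraries.

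In upper glycolysis, from glucose to the triose phosphates, 4 of 9 members rose, Hk2 fell and 4 did not pass. These shares were 44.4% higher and 11.1% lower, against 5.24% and 4.22% of all tested genes. The first step went down where it moved. Hk2, an inducible hexokinase isoform, had 251 and 263 CPM in ethanol and 225 and 221 CPM with 4-OHT (log2 fold change -0.20, SE 0.056, limma adjusted p = 0.0497). Its groups did not overlap, but the adjusted p was just under the threshold and was 0.139 in DESeq2, 0.111 without ethanol library A and 0.291 without library B. Hk1, the constitutive hexokinase, lay at 31.5 and 30.6 CPM in ethanol and 29.8 and 33.1 CPM with 4-OHT, with overlapping groups (adjusted p = 0.941). Gpi1, which turns glucose phosphate into fructose phosphate, had 503 and 493 CPM against 550 and 534 CPM, above in both 4-OHT libraries yet not past the test (0.12, adjusted p = 0.188).

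At phosphofructokinase, the committed step, 1 of 3 paralogues rose. Pfkl, the liver-type subunit, went from 263 and 251 CPM in ethanol to 349 and 361 CPM with 4-OHT, 1.38 times higher (log2 fold change 0.47, SE 0.055, limma adjusted p = 0.000663). Pfkm, the muscle-type subunit, stood at 78.9 and 71.3 CPM against 77.6 and 73.6 CPM, and its groups overlapped. Pfkp, the platelet-type subunit, had 34.6 and 34.0 CPM against 26.3 and 33.5 CPM and did not pass (-0.20, adjusted p = 0.357). Per kilobase, Pfkl therefore held 67.2% and 68.0% of the step in ethanol and 74.5% and 75.0% with 4-OHT. The share of Pfkm was 24.6% in ethanol and 19.8% with 4-OHT, and that of Pfkp 7.84% and 5.46%.

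Both aldolases and the triose phosphate isomerase rose. Aldoa, the ubiquitous aldolase that splits fructose bisphosphate, went from 659 and 655 CPM to 800 and 872 CPM (1.27 times, log2 fold change 0.35, SE 0.058, limma adjusted p = 0.00455). Aldoc, the brain-type aldolase (chromosome 11, 78322968 to 78327781), rose 2.26 times from a low level, from 6.20 and 6.24 CPM (40 reads in each library) to 15.8 and 12.4 CPM (111 and 78 reads; adjusted p = 0.00387). In spite of that fold it made up 0.810% of aldolase per kilobase in ethanol and 1.44% with 4-OHT. Tpi1, which interconverts the triose phosphates so that the whole sugar can go on (chromosome 6, 124810586 to 124814296, minus strand), had 245 and 250 CPM in ethanol and 342 and 376 CPM with 4-OHT. This was 1.45 times higher (0.54, SE 0.061, adjusted p = 0.000544). Spans of Aldoa and Tpi1 overlap Fam57b and Spsb2 on the opposite strand; how the authors' counting used strand is not given in the sources used here.

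**Figure D3:**
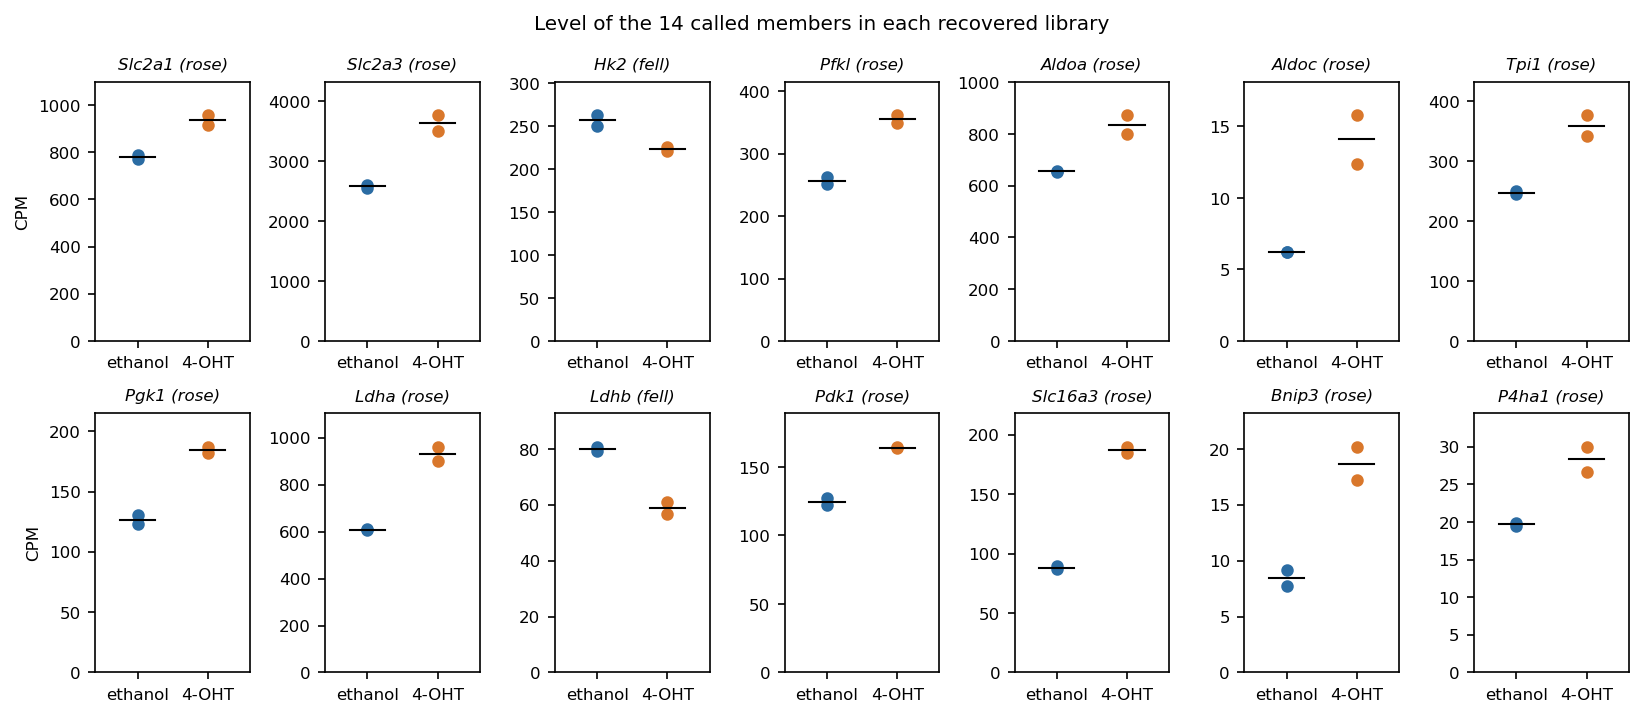
Level in CPM (vertical axis, from 0) of the 14 members that passed the test, in ethanol (blue) and 4-OHT (orange); each point is 1 recovered library and the bar is the mean of the pair. In all 14 the groups do not overlap, with Slc16a3 at 86.6 and 89.7 CPM in ethanol and 185 and 190 CPM with 4-OHT, and Ldhb and Hk2 lower with 4-OHT.

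Among the members of lower glycolysis, from triose phosphate to pyruvate, Gapdh, Pgam1, Eno1 and Pkm did not pass the test. Pgk1 was the single member that rose. That is 20% of 5 genes called higher, where 5.24% of all tested genes were. Pgk1, which makes the first ATP of the pathway (chromosome X, 106187100 to 106203699), had 123 and 131 CPM in ethanol and 187 and 182 CPM with 4-OHT, 1.46 times higher (log2 fold change 0.54, SE 0.061, limma adjusted p = 0.000524). Pgam1, the phosphoglycerate mutase, had 91.6 and 96.6 CPM against 96.2 and 91.4 CPM. Eno1, the main enolase, had 167 and 173 CPM against 173 and 162 CPM. Groups overlapped for both, with 95% confidence intervals of the log2 fold change of -0.16 to 0.15 for Pgam1 and -0.16 to 0.11 for Eno1. Pkm, the pyruvate kinase of growing cells, had 2002 and 1905 CPM against 2072 and 2254 CPM, above in both 4-OHT libraries without passing (0.15, adjusted p = 0.179). Gapdh, the dehydrogenase often used as a reference gene, was listed at 21.4 and 20.9 CPM in ethanol and 22.3 and 18.0 CPM with 4-OHT.

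These genes share much of their sequence with copies elsewhere. Of the 50-base words of annotated transcripts, 58.4% of those of Gapdh were also found in transcripts of other genes, 215 of which were pseudogenes. The share was 68.0% for Pgk1, 41.5% for Pgam1, 49.5% for Eno1 and 23.7% for Pkm. Further up and down the pathway it was 24.5% for Gpi1, 21.0% for Ldhb and 10.4% for Ldha, which shared with 14 pseudogenes, and 0% for Slc2a3, Aldoc, Pdk1 and Slc16a3. How the authors treated reads that match several genes is not given in the sources used here, so the levels of Gapdh, Pgk1, Pgam1 and Eno1, and to a lesser extent of the other genes that share words, are uncertain, and the part of shared reads in their values was not tested. Per kilobase, Gapdh lay at 14.1 CPM in ethanol against 752 for Pkm, 652 for Slc2a3, 321 for Ldha and 140 for Tpi1.

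At the fork between lactate and the mitochondria all 3 members passed the test, where 5.24% of all tested genes were called higher and 4.22% lower. Ldha encodes the lactate dehydrogenase subunit that favours lactate formation (chromosome 7, 46841475 to 46855627), and Ldhb the subunit that favours the return to pyruvate (chromosome 6, 142490249 to 142507957, minus strand). Ldha rose from 605 and 610 CPM to 903 and 962 CPM, 1.53 times (log2 fold change 0.62, SE 0.055, limma adjusted p = 0.000146). Ldhb fell from 80.8 and 79.1 CPM to 61.1 and 56.6 CPM, with ethanol 1.36 times higher (-0.44, SE 0.074, adjusted p = 0.00483). The paralogues thus moved in opposite directions, and neither pair of groups overlapped. Per kilobase, Ldhb held 16.2% and 15.8% of the 2 subunits in ethanol and 8.95% and 7.88% with 4-OHT. Pdk1, a HIF-responsive kinase that inactivates pyruvate dehydrogenase, rose from 122 and 127 CPM to 164 and 165 CPM (1.32 times, 0.39, SE 0.059, adjusted p = 0.00247). Among the 4 kinase paralogues its share per kilobase was 57.5% in ethanol and 63.9% with 4-OHT, and that of Pdk3 36.3% and 30.8%.

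Lactate transport held the member with the smallest adjusted p. Slc16a3 encodes MCT4, a carrier typical of cells that export lactate (chromosome 11, 120948480 to 120960868), and Slc16a1 encodes MCT1, which carries lactate either way. Slc16a3 had 86.6 and 89.7 CPM in ethanol libraries A and B and 185 and 190 CPM in 4-OHT libraries A and B, 2.12 times higher (log2 fold change 1.08, SE 0.061, limma adjusted p = 7.27e-06). Slc16a1 stood at 245 and 248 CPM against 270 and 260 CPM and did not pass (0.10, adjusted p = 0.292). The share of Slc16a3 in the pair per kilobase was 26.02% and 26.45% in ethanol and 40.5% and 42.1% with 4-OHT. Of 8 other monocarboxylate carriers and chaperones 5 were measured, 1 rose (20%, against 5.24% of all tested genes) and 0 fell. That gene was Emb, which encodes embigin, a membrane chaperone of monocarboxylate transporters, from 218 and 221 CPM to 489 and 475 CPM (1.13, SE 0.053, adjusted p = 2.89e-06). Bsg, the other chaperone gene on the list, had 313 and 311 CPM against 340 and 340 CPM. It did not pass (0.13, SE 0.052, limma adjusted p = 0.171).

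**Figure D4:**
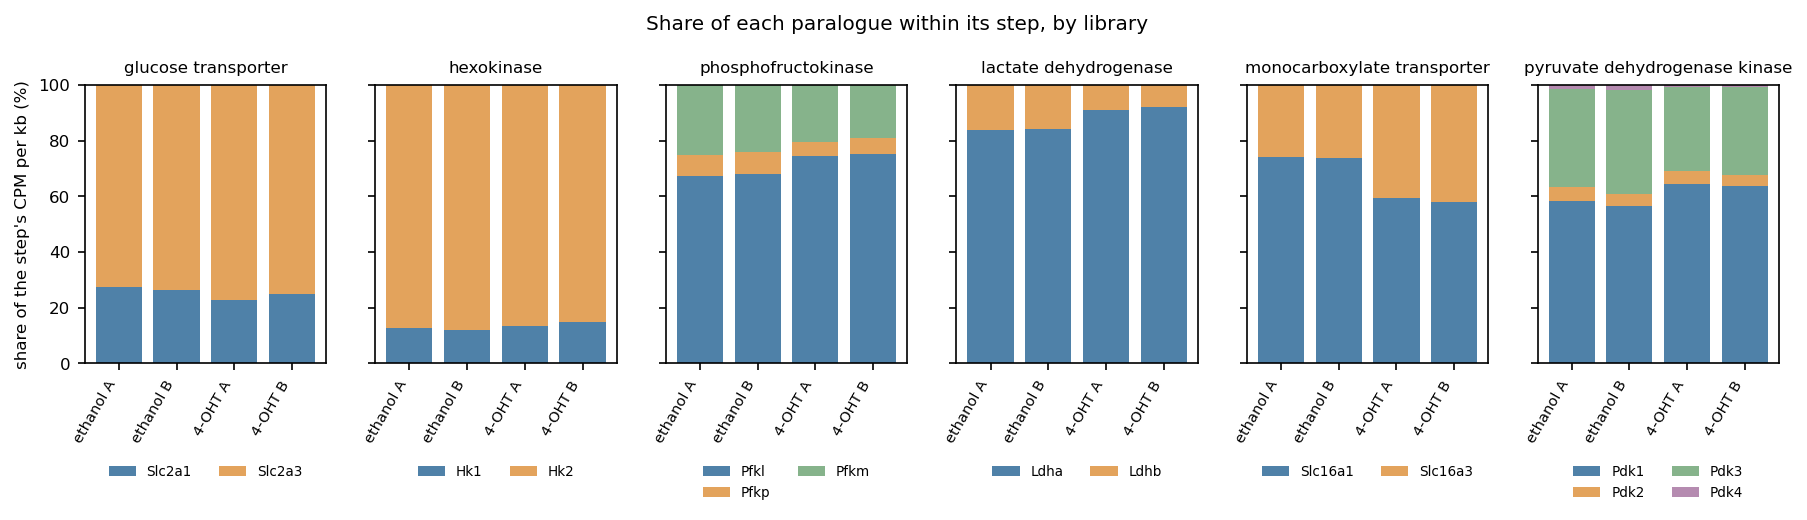
Share in percent (vertical axis) that each paralogue takes of its step's summed CPM per kilobase of exon, in each recovered library (A and B of ethanol and of 4-OHT), for 6 steps. The share of Slc16a3 is 26.02% and 26.45% in ethanol and 40.5% and 42.1% with 4-OHT, and that of Ldhb 16.2% and 15.8% against 8.95% and 7.88%.

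In the HIF system itself 0 of 3 members passed the test in limma or edgeR, and 0 had an unadjusted p under 0.05. Hif1a, the oxygen-regulated alpha subunit, had 213 and 226 CPM in ethanol and 214 and 207 CPM with 4-OHT, with overlapping groups (log2 fold change -0.06, 95% confidence interval -0.19 to 0.07, limma adjusted p = 0.597). Egln1, the main prolyl hydroxylase, stood at 44.3 and 38.5 CPM against 41.2 and 42.1 CPM. Egln3, a hydroxylase that is itself a HIF target, had 12.4 and 11.4 CPM against 13.1 and 12.4 CPM. Transcript levels say nothing of the stability of the HIF protein, which was not measured here. Of 16 other genes of oxygen sensing, all measured, 0 rose and 0 fell in limma, with 2 (12.5%) at an unadjusted p under 0.05 where 23.9% of all tested genes were, and edgeR called 1 lower, Arnt2. With 5.24% and 4.22% of all genes called, a count of 0 in 16 is near the background.

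Among the 9 HIF targets outside glycolysis 2 rose (22.2%, against 5.24% of all tested genes), Bnip3 and P4ha1, and 7 did not pass. Bnip3, which promotes the removal of mitochondria by autophagy (chromosome 7, 138890836 to 138909519, minus strand), had 7.75 and 9.20 CPM in ethanol and 17.2 and 20.2 CPM with 4-OHT, 2.21 times higher (log2 fold change 1.06, SE 0.16, limma adjusted p = 0.00239). It shared 59.1% of its 50-base words with other genes, so its level is uncertain. P4ha1, a subunit of collagen prolyl hydroxylase, rose from 19.5 and 19.8 CPM to 29.99 and 26.7 CPM (1.44 times, 0.50, SE 0.11, adjusted p = 0.0212), a call that DESeq2 did not make (adjusted p = 0.139). P4ha1 acts on collagen, which feeder fibroblasts make, and the feeder marker Col1a2 went from 127 and 141 reads in ethanol to 334 and 267 reads with 4-OHT. The other collagen markers did not pass (mean CPM in ethanol and 4-OHT of 47.2 and 48.3 for Col1a1, 3.34 and 2.84 for Col3a1, 39.6 and 37.9 for Col5a1 and 3.03 and 5.13 for Col6a1), and Fbln1 fell from 75.5 to 49.1 CPM. The part of feeder RNA in the result was not tested.

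The other 7 included some of the targets most used as reporters of hypoxia. Vegfa, the angiogenic growth factor, had 17.2 and 22.8 CPM in ethanol and 22.5 and 24.8 CPM with 4-OHT, and its groups overlapped. Car9, a cell-surface carbonic anhydrase, had 4.03 and 3.59 CPM against 4.26 and 5.25 CPM (adjusted p = 0.482, 95% confidence interval of the log2 fold change -0.18 to 0.69). Ndrg1, a stress-response gene, lay at 9.76 and 10.8 CPM against 9.10 and 10.0 CPM. At these depths Ankrd37 (10 to 16 reads a library) and Adm (3 to 16 reads), which encodes the vasodilator peptide adrenomedullin, had wide intervals of the log2 fold change, from -0.42 to 0.57 and from -0.74 to 0.83. Ddit4, an inhibitor of mTORC1 signalling, had 113 and 110 CPM against 124 and 134 CPM, above in both 4-OHT libraries (0.21, SE 0.065, limma adjusted p = 0.0790), and was called higher by edgeR (adjusted p = 0.0401). Mif, a cytokine, had 88.7 and 101 CPM against 109 and 103 CPM and did not pass (adjusted p = 0.231), with 76.4% of its 50-base words shared.

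A wider list of 37 other HIF targets was examined beside the members: of 35 measured, 9 rose (25.7%), 2 fell (5.71%) and 24 did not pass, with a median log2 fold change of 0.17. Over all tested genes 5.24% were called higher and 4.22% lower, with a median of -0.0016. The 4 largest rises of the wider list by fold were Car12, Cited2, Hmox1 and Pfkfb3. Car12, a membrane carbonic anhydrase, rose from 3.87 and 3.59 CPM to 7.82 and 7.31 CPM (limma adjusted p = 0.0150). Cited2, which encodes a competitor of HIF for its coactivators, rose from a mean of 57.2 CPM to 98.6 CPM (adjusted p = 0.000340). Hmox1, the haem-degrading oxygenase, is also a target of other stress pathways and rose from 104 and 101 CPM to 180 and 164 CPM (adjusted p = 0.000153). Pfkfb3 makes the allosteric activator of phosphofructokinase and went from 25.9 and 23.9 CPM to 36.4 and 41.8 CPM (adjusted p = 0.00498). The other risers were Stc2, Gys1, Ero1a, Errfi1 and Fam162a, and Bhlhe40 and Plod2 fell.

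Of 29 other glucose transporters and glycolytic isozymes 24 were measured, of which 2 rose (8.33%), 1 fell (4.17%) and 21 did not pass (median 0.07), shares near the 5.24% and 4.22% of all tested genes. Pfkfb3 is on this list too. Eno3, the muscle-type enolase, rose from 44.3 and 37.9 CPM to 56.6 and 60.4 CPM (limma adjusted p = 0.00854). Bpgm, which diverts an intermediate of lower glycolysis into bisphosphoglycerate, fell from 42.0 and 40.6 CPM to 31.4 and 27.8 CPM (adjusted p = 0.0150).

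**Figure D5:**
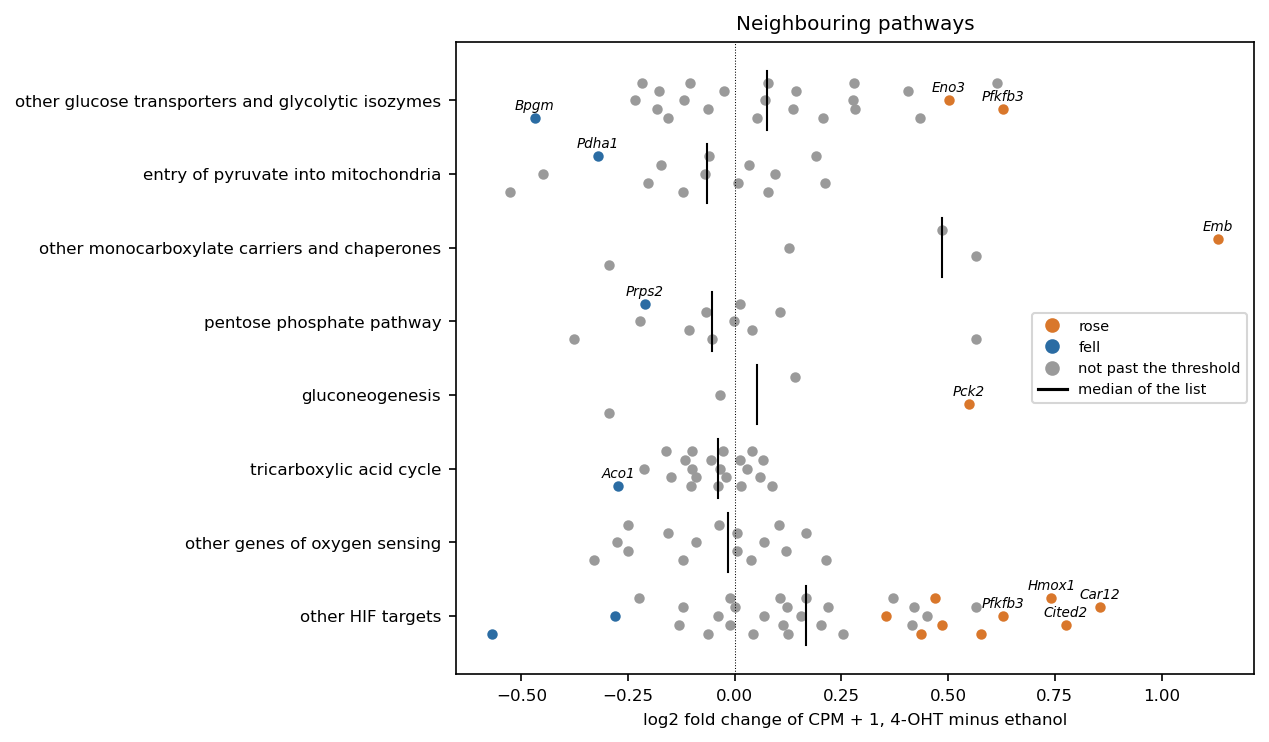
Log2 fold change on the CPM + 1 scale (horizontal axis, positive where 4-OHT is higher) of the measured genes of 8 lists of neighbouring pathways; points are genes (orange rose, blue fell, grey not past the threshold), black bars are list medians, and up to 4 called genes per list are named. Emb stands at 1.13, 9 of 35 other HIF targets rose, and in the tricarboxylic acid cycle 1 of 21 genes fell and 0 rose.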

How the data were processed

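PolyA RNA-seq of 4 libraries (2 ethanol, 2 with 4-OHT) was used. Per the file headers, the table that the authors deposited gives mean CPM per group, an adjusted p-value and a log2 fold change. The submitters' processing notes name the mm10 build and, with no role or version, the tools HISAT2, Trimmomatic, FastQC and edgeR; read counter, annotation and strand were not given in the sources used here. Neither the p-value nor the log2 fold change that the authors deposited was used: sorted by Entrez number as text, the column of adjusted p fell in 0 of 14381 steps, and over 14312 genes the ratio of the CPM means had a Spearman rho of 0.0159 with the fold change given in the same row, so both columns are out of register with the genes.

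A mean of 2 libraries is a sum of 2 whole read numbers, each times the step of its library. Both steps were found from low values, and 100% of the deposited CPM values gave whole reads to the digits printed, against 0.234% and 0.134% of random values. A single pair of reads was possible for 14346 genes in ethanol and 14375 with 4-OHT; 30 and 7 others, Slc2a3 and Pkm among them, were settled by keeping the pair that lay within 2-fold, and 6 genes (2799 CPM or more) were left out. Of 14376 genes tested, 18 had 0 reads throughout. The test was limma-trend 3.58.1 (R 4.3.3) on log2(CPM + 1), two-sided, Benjamini-Hochberg over all tested genes, threshold 0.05, no filter; adjusted p-values are limma's where no other tool is named. Counting tests on recovered reads used edgeR 4.0.16 and DESeq2 1.42.0. Recovery and tests were tried on simulated libraries with a fixed spread and no kit or culture effect. How the calls hold under such effects was not tested. Fold changes on the log2(CPM + 1) scale understate changes of low genes.

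Exon lengths, shared 50-base words and coordinates are from Gencode M21 and promoters from RefSeq, both on mm10. The members and lists were chosen with earlier results of these data known. All members are named; from other lists, called genes at 1 CPM or more, up to 4 per list by size of change. Thy1, Fbln1, Col1a2, Bsg and the further called HIF targets were named after their values were seen.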

Additional observations from a re-analysis of the deposited data

How the results depend on the processing

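No paired analysis was possible because the deposited columns carry no replicate numbers. A fit that leaves a group with 1 library assumes that it varies like the other group. Against 12 members higher and 2 lower (754 and 606 of all genes), leaving out 1 library in limma gave 0 to 11 members higher and 0 to 1 lower (0 to 626 and 0 to 461 of all genes), with 0 for either 4-OHT library. In edgeR, a fit chosen after seeing the data, it gave 11 to 14 and 1 to 2 (662 to 953 and 579 to 829 of all genes). DESeq2 gave 382 and 318 genes and 1 member lower, and a threshold of 0.01 gave 356 and 282 genes and 1 member lower. Genes lower numbered 959 at a threshold of 0.1, 981 at a minimum of 1 CPM and 989 in edgeR. A pseudocount of 0.1 left 1 member lower, and a minimum change of 1.5-fold left 4 higher and 0 lower. The 14 called members kept their sign in each of these fits. The share of Ldhb changed by -5.67 percentage points in plain CPM, against -7.63 per kilobase. With 1 library left out, in limma or edgeR, log2 fold changes spanned 0 for 8 members that did not pass: Hk1 (-0.056 to 0.092), Pfkm (-0.061 to 0.086), Gapdh (-0.24 to 0.078), Pgam1 (-0.042 to 0.035), Eno1 (-0.072 to 0.018), Egln1 (-0.090 to 0.11), Ankrd37 (-0.11 to 0.38) and Adm (-0.87 to 1.49). Adm, at 3 to 16 reads, was also at -0.13 in edgeR and -0.14 in DESeq2, against 0.04. The cause was not tested.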

Other observations

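The neighbouring pathways are given beside the background of 5.24% of all tested genes called higher and 4.22% lower. In the tricarboxylic acid cycle 1 of 21 genes fell (4.76%) and 0 rose (median log2 fold change -0.04; edgeR also called Sdhb lower), and 9 of 21 lay below both ethanol libraries in both 4-OHT libraries, against 25.7% of all genes. Aco1, the gene that fell, whose product is also an iron regulatory protein, went from 102 and 101 CPM in ethanol to 85.4 and 82.3 CPM with 4-OHT (limma adjusted p = 0.0275). A list of 14 genes held carriers of pyruvate into mitochondria, pyruvate dehydrogenase subunits, its kinases and phosphatases, which have opposite effects, and pyruvate carboxylase. Of these genes 1 fell (7.14%) and 0 rose (median -0.07), with 4 lower and 0 higher at an unadjusted p under 0.05. In either direction, 28.6% of the list was at that level, beside 23.9% of all 14376 tested genes. All 4 of the list were lower, whereas over all tested genes 1637 were lower and 1804 higher. The gene that fell was Pdha1, the catalytic subunit of pyruvate dehydrogenase and the substrate of the Pdk kinases, at 458 and 441 CPM against 360 and 359 CPM (-0.32, SE 0.053, adjusted p = 0.00416). Of 11 genes of the pentose phosphate pathway 1 fell (9.09%) and 0 rose (median -0.05): Prps2, which makes the precursor of nucleotides, went from 192 and 200 CPM to 170 and 169 CPM (adjusted p = 0.0452). Of 6 genes of gluconeogenesis 4 were measured, 1 rose (25%) and 0 fell. Pck2, the mitochondrial carboxykinase, went from 30.1 and 31.4 CPM to 41.9 and 49.1 CPM (adjusted p = 0.00769).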
